A study of Sus scrofa with 13 samples.

Results

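The adhesion molecules by which leukocytes enter a vessel wall were examined in pigs, in the vein that carries blood away from an arteriovenous fistula. Of 9 genes named for this role (ICAM1, VCAM1, SELE, SELP, ITGAL, ITGAM, ITGB2, ITGA4 and SELPLG), 7 were found by symbol among the protein-coding rows of a table of 30477 genes. SELE and SELPLG were not analysed here. All 7 passed the filter on low values, which left 14579 genes for testing. Treated veins received 1,25 NP, nanoparticles of the polymer PLGA loaded with 1α,25-dihydroxyvitamin D3, in a hydrogel (8 libraries, 3 female and 5 male). Vehicle veins received PLGA in the hydrogel without the hormone (5 libraries, 3 female and 2 male). Each library is called by its group and its animal code, and the table's column names also mark the sex. No source used here says more about the animals behind the codes, so p-values measure the spread between these libraries. The values are RPKM, reads per kilobase of gene length scaled to the reads of the library.

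Leukocytes leave the blood in steps. Selectins on activated endothelium and platelets catch passing cells, and integrins on the leukocyte then bind immunoglobulin-type ligands on the endothelium and hold the cell until it crawls through the wall. The integrin chain ITGB2 pairs with ITGAL or ITGAM and binds ICAM1, while ITGA4 pairs with ITGB1 or ITGB7 and binds VCAM1. In veins exposed to arterial flow, leukocytes are found in the remodelling wall.

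No adhesion molecule passed for a difference between 1,25 NP and vehicle veins after adjustment over all tested genes. Before adjustment ITGAL alone was lower in 1,25 NP beyond the spread between libraries (log2 difference -0.90, SE 0.35, limma, unadjusted p = 0.0193, adjusted p = 0.795). Over the 13 libraries 6 of the 21 pairs of adhesion molecules were correlated, in 2 sets. Of all pairs of tested genes 16.1% had an r at or above that of the weakest of the 6. VCAM1, ITGA4 and SELP followed PTPRC, the common leukocyte gene CD45, with Pearson r of 0.88, 0.87 and 0.70. The SELP value stood above those of 75.1% of all tested genes and its call was lost with 8 of 13 libraries left out in turn. ITGAL, ITGAM and ITGB2 followed one another, with r of 0.71 to 0.84. Each was highest in vehicle library P16, and none of their 3 pairs passed without it. ICAM1 passed in neither set. With CORO1A, another leukocyte gene taken after seeing the data, r was 0.91 for ITGB2, 0.79 for ITGAL and 0.70 for ITGAM. It was 0.34 for VCAM1, 0.34 for ITGA4 and 0.21 for SELP. In tissue RNA, fewer cells of a type and less RNA per cell cannot be told apart.

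The libraries held between 30261776 and 50271231 reads on genes, as recovered from the values, and between 12970 and 14686 genes above 0.5 RPKM. Noncoding rows took 8.33% to 23.7% of the reads. None of 24 relations of the 7 genes and PTPRC with reads, genes above 0.5 RPKM or noncoding share passed a permutation test after Benjamini-Hochberg adjustment. The smallest p-value was that of SELP with the noncoding share (r = 0.60, permutation p = 0.0283, adjusted p = 0.630, 13 libraries). Markers of the vein wall were present in every library. The 7 tested endothelial markers summed to 101 to 215 RPKM in 1,25 NP libraries and to 161 to 226 RPKM in vehicle libraries, and the 6 smooth muscle markers to 306 to 3889 RPKM in 1,25 NP and to 395 to 5359.5 RPKM in vehicle libraries.

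The endothelial ligands were the most abundant of the adhesion molecules per gene length. VCAM1 averaged 84.0 RPKM over the 13 libraries and ICAM1 25.4 RPKM, and VCAM1 was the higher of the pair in 12 of 13 libraries. ICAM1 lay above the next gene, ITGAM at 8.59 RPKM, in 13 of 13 libraries. Neighbours further down did not part in every library: ITGAM was above ITGAL (8.46 RPKM) in 6 of 13, ITGAL above ITGB2 (6.90 RPKM) in 9 of 13, and ITGB2 above ITGA4 (5.62 RPKM) in 7 of 13. SELP was lowest at 3.42 RPKM, below ITGA4 in 11 of 13 libraries. Between the lowest and the highest library the level differed 12.95-fold for SELP, 11.9-fold for ITGB2, 9.76-fold for ITGA4, 9.66-fold for ITGAL, 7.11-fold for ICAM1, 5.83-fold for ITGAM and 4.64-fold for VCAM1. The SD of log2(RPKM + 0.5) of ITGA4 was larger than that of 90.9% of the tested genes, and that of VCAM1, the steadiest of the 7, larger than that of 63.7%.

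**Figure D1:**
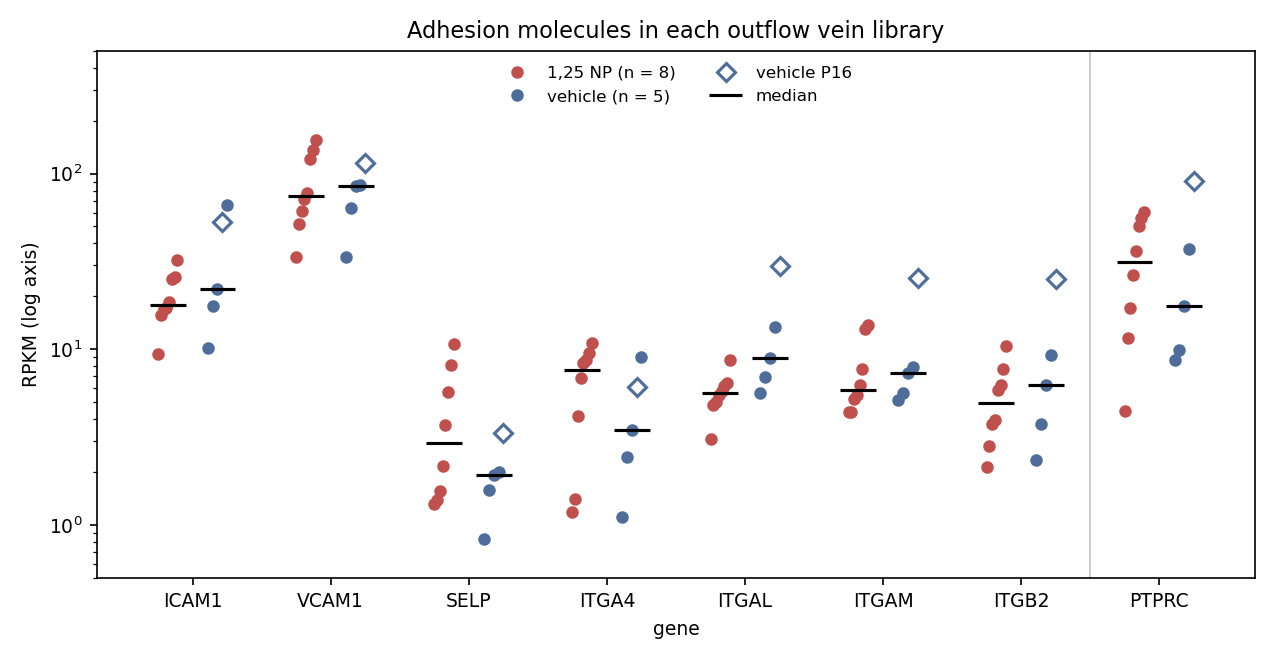
RPKM on a log axis of the 7 adhesion molecules and of PTPRC in each library, with 1,25 NP left of vehicle and the median of each group as a bar. Vehicle library P16, drawn as an open diamond, was the highest of all 13 libraries for ITGAL, ITGAM, ITGB2 and PTPRC, and the groups overlapped for every gene.

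ICAM1 (ENSSSCG00000013655, chromosome 2, 69097122 to 69108205 as the table gives it, with no build named) encodes the endothelial ligand of the integrins that contain ITGB2, and inflammatory cytokines are known to raise it. Its level in 1,25 NP libraries ran from 9.36 RPKM in P23 through a median of 17.9 to 32.4 RPKM in P42. In vehicle it was 17.5 RPKM in P13, 22.1 in P14, 10.2 in P15, 52.8 in P16 and 66.5 in P17. Vehicle libraries P16 and P17 lay above every 1,25 NP library, while the other 3 vehicle libraries lay within the 1,25 NP range. The group means were 20.2 ± 7.24 RPKM in 1,25 NP (SD, n = 8) and 33.8 ± 24.4 RPKM in vehicle (SD, n = 5), and 0 of 8 1,25 NP libraries exceeded the vehicle mean. The log2 difference, 1,25 NP minus vehicle, was -0.49 (SE 0.42, 95% interval -1.38 to 0.39, limma, adjusted p = 0.795). It was -0.17 without vehicle library P17, -0.25 without vehicle library P16 and -0.83 without vehicle library P15.

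VCAM1 (ENSSSCG00000006862, chromosome 4, 117496908 to 117511226) encodes the ligand of the ITGA4 integrins and is made by activated endothelium and by smooth muscle cells of inflamed vessels. It ran from 33.4 RPKM in 1,25 NP library P28 through a median of 74.9 to 155 RPKM in P42. The vehicle values were 33.6 RPKM in P13, 85.0 in P14, 86.5 in P15, 114 in P16 and 63.95 in P17. The vehicle libraries all lay within the 1,25 NP range. The means of 88.5 ± 43.6 RPKM in 1,25 NP (SD, n = 8) and 76.6 ± 29.9 RPKM in vehicle (SD, n = 5) gave a log2 difference of 0.15 (SE 0.39, 95% interval -0.68 to 0.98, limma, adjusted p = 0.891). Without vehicle library P13, the lowest of that group, it was -0.11.

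SELP (ENSSSCG00000006288, chromosome 4, 81365740 to 81406203) encodes P-selectin, which endothelium and platelets store in granules and bring to the surface to catch leukocytes. In 1,25 NP libraries it ran from 1.31 RPKM in P23 through a median of 2.95 to 10.7 RPKM in P42. In vehicle it was 0.829 RPKM in P13, 2.00 in P14, 1.92 in P15, 3.34 in P16 and 1.59 in P17. 1,25 NP libraries P24, P31, P32 and P42 lay above every vehicle library, and the other 4 lay within the vehicle range. The group means were 4.34 ± 3.54 RPKM in 1,25 NP (SD, n = 8) and 1.94 ± 0.911 RPKM in vehicle (SD, n = 5). The log2 difference of 0.74 (SE 0.46, 95% interval -0.24 to 1.73) did not pass (limma, adjusted p = 0.795). Its row overlaps that of F5, the gene of coagulation factor V, by 2972 bases. No source used here says whether counting used strand, which leaves reads in the overlap uncertain. F5 had 3.55 ± 3.04 RPKM in 1,25 NP (SD, n = 8) and 2.37 ± 2.16 RPKM in vehicle (SD, n = 5). Of the 3 tested platelet markers, GP9 had r of -0.84 with SELP over the 13 libraries, ITGA2B -0.20 and PPBP 0.57. The 3 summed to 6.29 to 11.2 RPKM in 1,25 NP and to 8.39 to 12.3 RPKM in vehicle libraries. Most of the sum was ITGA2B, at 4.85 to 11.1 RPKM over all libraries. GP9 reached 1.88 RPKM at most, and PPBP had a median of 0.166 RPKM, near the floor. The part of platelets in the SELP level was not tested.

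ITGA4 (ENSSSCG00000016009, chromosome 15, 86947021 to 87029777) encodes the integrin chain by which lymphocytes, monocytes and eosinophils hold VCAM1. It ran from 1.18 RPKM in 1,25 NP library P23 through a median of 7.60 to 10.8 RPKM in P42. In vehicle it was 1.11 RPKM in P13, 9.06 in P14, 3.46 in P15, 6.07 in P16 and 2.44 in P17. The groups overlapped over most of the range, with 1,25 NP libraries P32 and P42 above every vehicle library and vehicle library P13 lowest of all. The group means were 6.37 ± 3.70 RPKM in 1,25 NP (SD, n = 8) and 4.43 ± 3.16 RPKM in vehicle (SD, n = 5), with a log2 difference of 0.45 (SE 0.54, 95% interval -0.70 to 1.60, limma, adjusted p = 0.801). Leaving out vehicle library P13 gave 0.11 and leaving out vehicle library P14 gave 0.76. Its row overlaps that of CERKL, whose reads may be shared with it. Of its partner chains, ITGB1 had 133 ± 49.9 RPKM in 1,25 NP (SD, n = 8) and 83.9 ± 23.3 RPKM in vehicle (SD, n = 5), with 7 of 8 1,25 NP libraries above the vehicle mean (log2 difference 0.63, SE 0.29, limma, adjusted p = 0.795). ITGB7 had 2.61 ± 2.12 RPKM in 1,25 NP and 4.24 ± 4.22 RPKM in vehicle (SD, n = 8 and 5).

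ITGAL (ENSSSCG00000007797, chromosome 3, 17817011 to 17858057) encodes the alpha chain of the lymphocyte integrin LFA-1. It ran from 3.07 RPKM in 1,25 NP library P31 through a median of 5.65 to 8.69 RPKM in P24. The vehicle values were 6.95 RPKM in P13, 13.3 in P14, 5.61 in P15, 29.7 in P16 and 8.96 in P17. Vehicle libraries P14, P16 and P17 lay above every 1,25 NP library, and P13 and P15 lay within the 1,25 NP range. The means were 5.69 ± 1.60 RPKM in 1,25 NP (SD, n = 8) and 12.9 ± 9.82 RPKM in vehicle (SD, n = 5), and 0 of 8 1,25 NP libraries exceeded the vehicle mean. Of the 7 genes ITGAL had the smallest p-value, with a log2 difference of -0.90 (SE 0.35, 95% interval -1.64 to -0.17, limma), rank 177 among all tested genes. It did not pass after adjustment (adjusted p = 0.795, limma). Without vehicle library P16 the log2 difference was -0.55.

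ITGAM (ENSSSCG00000007754, chromosome 3, 17136161 to 17273657) encodes CD11b, the alpha chain of the integrin Mac-1 of neutrophils and monocytes. It ran from 4.38 RPKM in 1,25 NP library P22 through a median of 5.88 to 13.8 RPKM in P32. In vehicle it was 7.31 RPKM in P13, 7.92 in P14, 5.13 in P15, 25.5 in P16 and 5.61 in P17. Vehicle library P16 stood above all others, with 1,25 NP libraries P24 and P32 next, and the other 4 vehicle libraries lay within the 1,25 NP range. The means were 7.53 ± 3.78 RPKM in 1,25 NP (SD, n = 8) and 10.3 ± 8.58 RPKM in vehicle (SD, n = 5), and the log2 difference was -0.29 (SE 0.39, 95% interval -1.11 to 0.54, limma, adjusted p = 0.814). Without vehicle library P16 it turned to 0.097. The row spans 137497 bases with a gene length of 16396 bases. RefSeq places the related genes ITGAX and ITGAD beside ITGAM, the table used here has no row of either name, and whether their reads are part of this row was not tested.

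ITGB2 (ENSSSCG00000025133, chromosome 13, 207512954 to 207544108) encodes CD18, the beta chain that ITGAL and ITGAM share. It ran from 2.12 RPKM in 1,25 NP library P31 through a median of 4.92 to 10.4 RPKM in P24. In vehicle it was 6.29 RPKM in P13, 9.27 in P14, 2.35 in P15, 25.2 in P16 and 3.74 in P17. As for the alpha chains, vehicle library P16 was highest, and the other 4 vehicle libraries lay within the 1,25 NP range. The means were 5.37 ± 2.75 RPKM in 1,25 NP (SD, n = 8) and 9.37 ± 9.22 RPKM in vehicle (SD, n = 5), with a log2 difference of -0.45 (SE 0.47, 95% interval -1.46 to 0.55, limma, adjusted p = 0.795). Without vehicle library P16 the difference was 4.39e-05.

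Across the 7 genes, 3 were higher in 1,25 NP veins (VCAM1, SELP and ITGA4) and 4 lower (ICAM1, ITGAL, ITGAM and ITGB2), with a median log2 difference of -0.29. Of all tested genes 43.8% were higher, with a median of -0.071. None of the 7 passed at an adjusted p of 0.05, and percent called over the table was 0 (limma, 0 of 14579 genes). At an unadjusted p under 0.05 1 of the 7, ITGAL, was counted, against 585 of 14579 genes (4.01%), or 629 genes when limma voom was run on the recovered reads. For none of the 7 were the groups apart without overlap, which held for 14 of 14579 genes (0.096%). The intervals of all 7 include changes of at least 1 log2 unit in the direction of their estimate, apart from VCAM1, whose interval ran to 0.98.

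**Figure D2:**
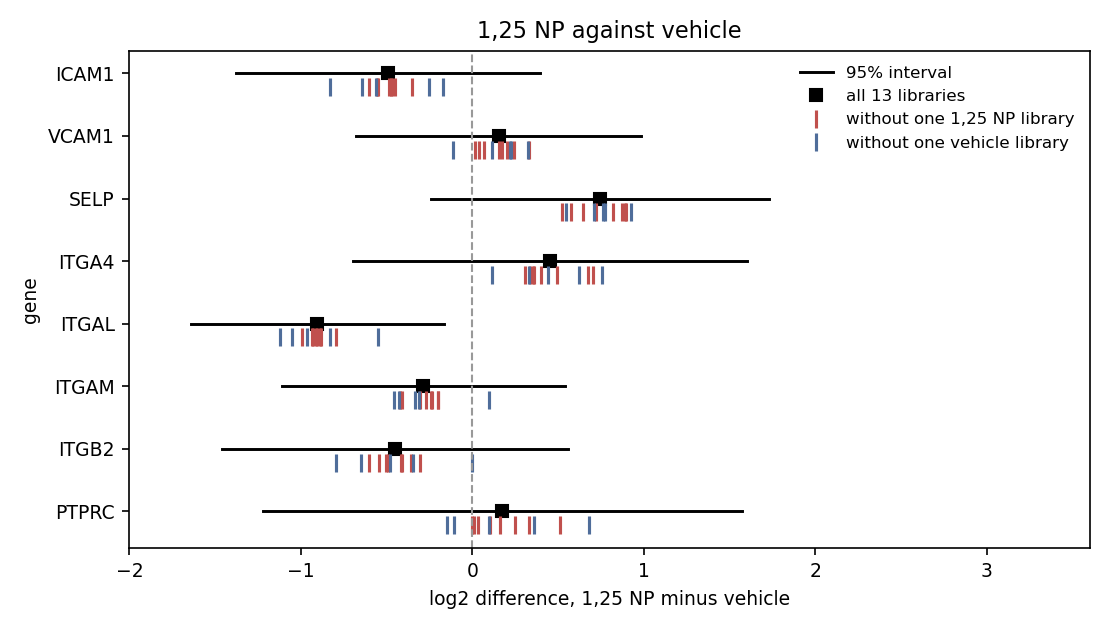
Log2 difference, 1,25 NP minus vehicle, of each adhesion molecule and of PTPRC (square) with its 95% interval (line), and below it the value with each library left out (red ticks for 1,25 NP libraries, blue ticks for vehicle libraries). The interval of ITGAL alone lies below 0, and the ticks of VCAM1, ITGAM, ITGB2 and PTPRC fall on both sides of 0.

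The header marks the sex of each animal, so differences were also taken within sex. PTPRC was higher in 1,25 NP than in vehicle among females, by 1.502 on the log2 scale, and lower among males, with a log2 difference of -1.45 (3 and 3 females, 5 and 2 males). Within females ITGA4 differed by 1.34, SELP by 1.01, VCAM1 by 0.60, ITGAM by 0.091, ITGB2 by 0.072, ICAM1 by -0.23 and ITGAL by -0.42. Within males the values were -0.65 for ITGA4, 0.33 for SELP, -0.40 for VCAM1, -0.94 for ITGAM, -1.44 for ITGB2, -0.85 for ICAM1 and -1.71 for ITGAL. The male estimate was below the female estimate for all 7. Over all tested genes the male minus female value had a median of -0.13, so many genes leaned the same way. The share of genes below 0 was not taken. None of these sex differences passed over the table: the smallest adjusted p of the 7 was 0.824 (limma interaction, unadjusted p = 0.0431 for ITGAL), and that of PTPRC was 0.824 as well. By this test 0 of 14579 genes passed and 425 had an unadjusted p under 0.05. The vehicle males are the 2 libraries P16 and P14, which were the highest and the next highest vehicle libraries for PTPRC, ITGAL, ITGAM and ITGB2.

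PTPRC, a surface phosphatase of leukocytes, was taken as a leukocyte gene for comparison. It ran from 4.44 RPKM in 1,25 NP library P28 through a median of 31.3 to 60.3 RPKM in P24, and in vehicle it was 8.69 RPKM in P13, 37.1 in P14, 17.7 in P15, 91.0 in P16 and 9.87 in P17. The 20.5-fold span exceeded that of each adhesion molecule, and the group means were 32.8 ± 21.3 RPKM in 1,25 NP (SD, n = 8) and 32.9 ± 34.4 RPKM in vehicle (SD, n = 5). The log2 difference was 0.17 (SE 0.66, limma, adjusted p = 0.926), and 0.68 without vehicle library P16.

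VCAM1 rose with PTPRC over the 13 libraries (Pearson r = 0.88, permutation p = 0.000150, adjusted p = 0.00350, Spearman rho = 0.86). Without the 2 libraries farthest from the median of PTPRC, 1,25 NP P28 and vehicle P16, r was 0.84, and within the 8 1,25 NP libraries it was 0.91 (exact permutation p = 0.00119). ITGA4 also rose with PTPRC (r = 0.87, permutation p = 0.000200, adjusted p = 0.00350, rho = 0.79), with r of 0.93 without the same 2 libraries and of 0.91 within 1,25 NP (exact permutation p = 0.00246). SELP passed by a narrower margin (r = 0.70, permutation p = 0.00828, adjusted p = 0.0385, rho = 0.70), with r of 0.86 without those 2 libraries and of 0.73 within 1,25 NP (exact permutation p = 0.0406). The SELP rank correlation did not pass after adjustment (permutation test, adjusted p = 0.0566). The SELP call was lost without 1,25 NP library P22, P23, P24, P31, P32 or P42 or vehicle library P13 or P15, with r between 0.65 and 0.69 in those 8 cases, and with median-of-ratios scaling (r = 0.65, permutation test, adjusted p = 0.0693). Taken as deviations from the mean of each sex, a choice made after seeing the data, r was 0.87 for VCAM1, 0.86 for ITGA4 and 0.68 for SELP. Taken as deviations from the group means it was 0.88, 0.88 and 0.73 for the same genes. With each library left out in turn r stayed between 0.83 and 0.91 for VCAM1 and between 0.85 and 0.92 for ITGA4. These p-values were adjusted over 35 relations, those of the 7 genes with PTPRC, with the endothelial gene PECAM1 and with one another. The vehicle group, with 5 libraries, has too few for a value of its own.

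The genes of the ITGB2 integrins and ICAM1 did not pass with PTPRC. For ITGAM r was 0.61 (rho 0.54, permutation p = 0.0225, adjusted p = 0.0789), and 0.43 without the 2 far libraries. It was 0.42 for ITGB2 (rho 0.42, permutation p = 0.155, adjusted p = 0.362) and 0.37 for ITGAL (rho 0.21, permutation p = 0.214, adjusted p = 0.393). The ITGAL value was -0.020 without 1,25 NP P28 and vehicle P16, so that it rested on those libraries. For ICAM1 r was 0.36 (rho 0.47, permutation p = 0.224, adjusted p = 0.393). In vehicle library P17 ICAM1 was at its highest and PTPRC low, and without that library ICAM1 passed (r = 0.70, permutation test, adjusted p = 0.0401). ITGAM passed without 1,25 NP library P31 (r = 0.69, permutation test, adjusted p = 0.0499).

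**Figure D3:**
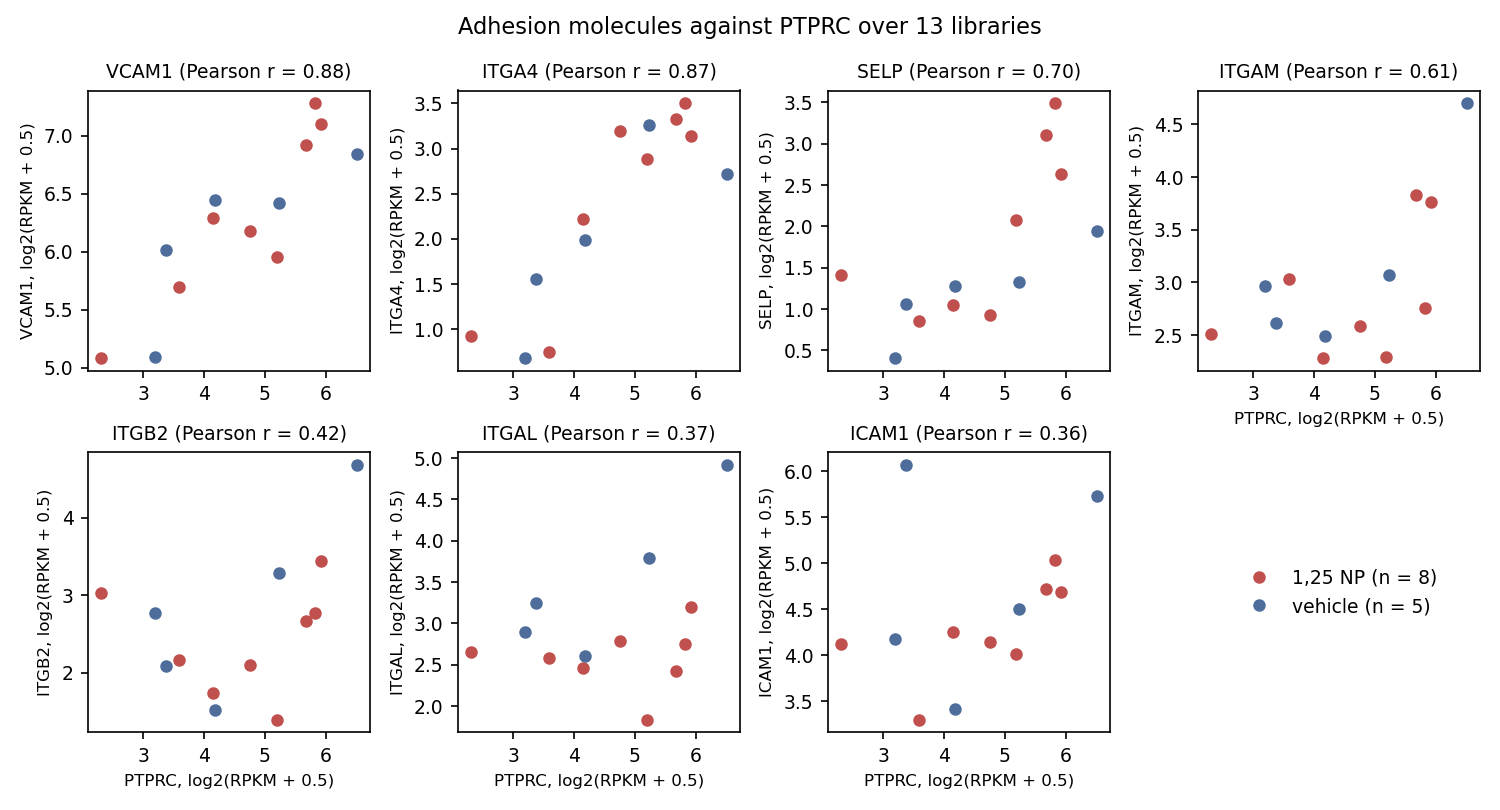
Level of each adhesion molecule against that of PTPRC, both as log2(RPKM + 0.5), over 8 1,25 NP libraries (red) and 5 vehicle libraries (blue), ordered by Pearson r. VCAM1 and ITGA4 are higher in libraries with more PTPRC, although vehicle library P16, the point farthest right, lies below 1,25 NP libraries P24, P32 and P42 for both, while for ITGB2 and ITGAL it lies above all others.

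Many genes of these veins followed PTPRC, so the 7 were read against the whole table. In a limma fit with group in the model, 4 of the 7 rose with PTPRC at an adjusted p of 0.05, against 4771 of 14578 genes (32.7%). The slopes, in log2 units per log2 unit of PTPRC, were 0.71 for ITGA4 (SE 0.12, limma, adjusted p = 0.00114), 0.50 for SELP (SE 0.13, adjusted p = 0.00925), 0.48 for VCAM1 (SE 0.091, adjusted p = 0.00209) and 0.36 for ITGAM (SE 0.12, adjusted p = 0.0297). Those of ITGB2 (0.32), ITGAL (0.25) and ICAM1 (0.24) did not pass (limma, adjusted p = 0.140, 0.0980 and 0.200). ICAM1 passed without vehicle library P17 and ITGAL without 1,25 NP library P31. The ITGAM call was lost without 1,25 NP library P24, P28 or P32 or vehicle library P16 or P17 (limma, adjusted p = 0.0511 to 0.172). Without 1,25 NP library P28, which had the lowest PTPRC, 1234 genes rose with PTPRC (8.46%), and 4 of the 7 were still counted, with ITGB2 in the place of ITGAM. By r with PTPRC, VCAM1 stood above 97.9% and ITGA4 above 97.5% of the tested genes, SELP above 75.1%, ITGAM above 67.0%, and ITGB2, ITGAL and ICAM1 above 55.4%, 53.1% and 52.7%.

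PECAM1, an adhesion molecule of endothelial junctions that stands here for the endothelium, gave no such relation. It had 61.1 ± 20.5 RPKM in 1,25 NP (SD, n = 8) and 67.3 ± 16.5 RPKM in vehicle (SD, n = 5), and r with the 7 genes ran from -0.16 for SELP to 0.40 for VCAM1. None of the 7 passed (permutation test, smallest adjusted p = 0.367). No gene passed on its slope on PECAM1 (limma, 0 of 14578, with 1576 at an unadjusted p under 0.05), so percent called was 0. The row of PECAM1 overlaps those of DDX5, MILR1 and POLG2, whose reads may be shared with it.

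Among the 7 genes themselves 6 of 21 pairs passed, with r of 0.70 to 0.84. Of all pairs of tested genes 16.1% had an r at or above that of the weakest of the 6. VCAM1 went with ITGA4, its counter-receptor chain (r = 0.83, rho 0.77, permutation p = 0.000420, adjusted p = 0.00469), and both went with SELP (r = 0.76 for VCAM1, rho 0.68, permutation p = 0.00270, adjusted p = 0.0157; r = 0.70 for ITGA4, rho 0.70, permutation p = 0.00879, adjusted p = 0.0385). Without 1,25 NP P23 and vehicle P13, the libraries farthest from the median of ITGA4, r was 0.77 for VCAM1 with ITGA4 and 0.57 for SELP with ITGA4. Without 1,25 NP P32 and P42, farthest from the median of SELP, it was 0.64 for VCAM1 with SELP. ITGB2 went with both of its alpha chains, ITGAL (r = 0.84, rho 0.66, permutation p = 0.000600, adjusted p = 0.00469) and ITGAM (r = 0.83, rho 0.76, permutation p = 0.000670, adjusted p = 0.00469), and the alpha chains went with each other (r = 0.71, rho 0.51, permutation p = 0.0119, adjusted p = 0.0464). Among the r of ITGB2 with all tested genes, those with ITGAL and ITGAM each stood above 99.5%. Among the r of ITGA4 with all tested genes, that with VCAM1 stood above 88.6% and that with SELP above 71.0%, and among those of VCAM1 that with SELP stood above 81.1%.

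**Figure D4:**
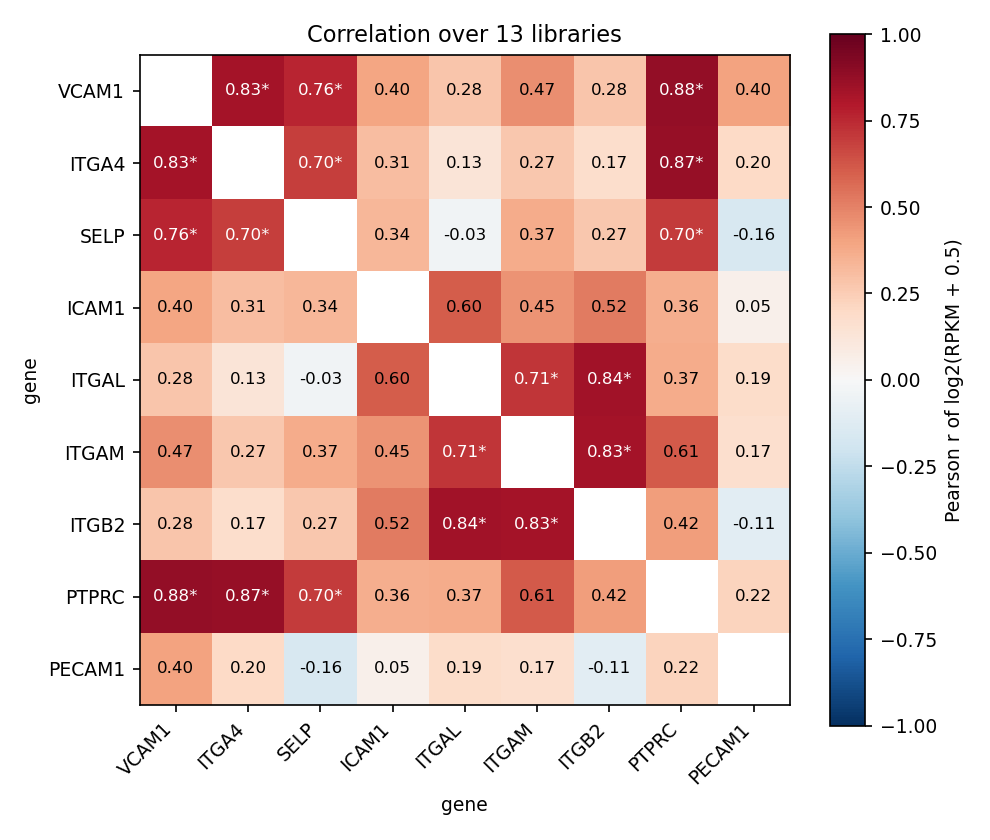
Pearson r of log2(RPKM + 0.5) over the 13 libraries between each pair of adhesion molecules and with PTPRC and PECAM1, with a star where the adjusted permutation p is under 0.05. VCAM1, ITGA4, SELP and PTPRC form one block of starred values and ITGAL, ITGAM and ITGB2 the other, and no star joins the blocks.

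The block of ITGB2 integrins rested in good part on vehicle library P16. Without it r was 0.66 for ITGAL with ITGB2, 0.67 for ITGAM with ITGB2 and 0.34 for ITGAL with ITGAM, and none of the 3 passed (permutation test, adjusted p = 0.0787, 0.0787 and 0.666). Pairs that passed then numbered 2. They numbered 3 without 1,25 NP library P42 and 3 without vehicle library P13, where VCAM1 with SELP no longer passed (r = 0.69 and 0.71). Calls near the threshold were lost in most cases. SELP with ITGA4 passed only without 1,25 NP library P21 or P28 or vehicle library P14 or P17, and ITGAL with ITGAM only without 1,25 NP library P32 or vehicle library P17. Over the 13 cases r ran from 0.63 to 0.80 for SELP with ITGA4 and from 0.34 to 0.86 for ITGAL with ITGAM. Within the 8 1,25 NP libraries r was 0.79 for ITGAL with ITGB2, 0.66 for ITGAM with ITGB2 and 0.83 for VCAM1 with ITGA4 (exact permutation p = 0.0150, 0.0848 and 0.00940), and no pair passed there after adjustment. In these 8 libraries ICAM1 had r of 0.83 with SELP, 0.79 with VCAM1 and 0.77 with ITGA4 (exact permutation p = 0.00747, 0.0167 and 0.0171, adjusted p = 0.0822, 0.0856 and 0.0856). With median-of-ratios scaling over the 13 libraries, SELP with ITGA4 and ITGAL with ITGAM did not pass (r = 0.66 and 0.69, permutation test, adjusted p = 0.0689 for both).

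The other genes of this path were read from lists. Enzymes and adaptors that switch integrins on (20 tested) had 4 higher and 16 lower members in 1,25 NP veins (median log2 difference -0.25), and 0 passed. They included the focal adhesion adaptor PXN, at 14.4 ± 5.33 RPKM in 1,25 NP and 21.05 ± 4.72 RPKM in vehicle (SD, n = 8 and 5), and the kinase PTK2B, at 7.28 ± 2.27 RPKM in 1,25 NP and 12.8 ± 7.93 RPKM in vehicle. Other endothelial adhesion and junction genes had 3 of 15 higher and a median of -0.25. Among them ACKR1, the chemokine-binding receptor of venules, had 12.2 ± 5.05 RPKM in 1,25 NP and 19.5 ± 10.4 RPKM in vehicle, and ICAM2 had 4.08 ± 1.03 RPKM in 1,25 NP and 5.56 ± 1.38 RPKM in vehicle. Genes of the endothelial docking structure, the actin-bound cup under an adherent leukocyte, had 4 of 14 higher and a median of -0.15. The ezrin relative RDX had 21.6 ± 6.34 RPKM in 1,25 NP and 16.8 ± 5.68 RPKM in vehicle.

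Inducers of endothelial adhesion molecules, a list of cytokines, receptors and NF-kappaB genes, had 3 of 18 higher and a median of -0.34. Not all of them raise ICAM1 and VCAM1, since the list also holds NFKBIA, an inhibitor of NF-kappaB. NFKBIA had the smallest p of the list (log2 difference -0.91, limma, adjusted p = 0.795). It had 34.0 ± 7.98 RPKM in 1,25 NP and 68.9 ± 34.7 RPKM in vehicle (SD, n = 8 and 5). RELB, an NF-kappaB subunit, had 3.15 ± 2.02 RPKM in 1,25 NP and 8.10 ± 7.17 RPKM in vehicle (SD, n = 8 and 5), and the TNF receptor TNFRSF1B had 26.5 ± 6.37 RPKM in 1,25 NP and 40.3 ± 16.5 RPKM in vehicle. Enzymes that build selectin ligands had 4 of 9 higher and a median of -0.12, with B4GALT1 at 38.7 ± 8.47 RPKM in 1,25 NP and 28.6 ± 4.45 RPKM in vehicle. Other integrins and leukocyte adhesion genes had 7 of 13 higher and a median of 0.033. The integrin chain ITGAV had 48.7 ± 14.2 RPKM in 1,25 NP and 33.3 ± 12.9 RPKM in vehicle. In each of these 6 lists 0 genes passed (limma). The median turned to 0.11 for the selectin ligand enzymes without vehicle library P16, to 0.038 for the docking structure without vehicle library P17, and to -0.060 for the other integrins and leukocyte adhesion genes without vehicle library P13. The median of the same list was also below 0 without 1,25 NP library P23 or P24 or vehicle library P15. Without vehicle library P16 the median was -0.086 for integrin activation and -0.14 for the inducers. With vehicle library P15 left out the inducers had a median of -0.53, and with P17 left out one of -0.21. That of the endothelial adhesion and junction genes was -0.40 without vehicle library P14 and -0.37 without 1,25 NP library P22.

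Markers of the cells that could carry these molecules did not pass either. Of the T and NK cell markers 0 of 7 were higher in 1,25 NP veins (median log2 difference -0.16), and summed to 10.2 to 40.9 RPKM in 1,25 NP and to 11.1 to 83.8 RPKM in vehicle libraries. Of the macrophage and monocyte markers 4 of 8 were higher (median -0.037), and they summed to 139 to 435 RPKM in 1,25 NP and to 130 to 606 RPKM in vehicle. The 3 tested neutrophil markers had log2 differences above 0 with a median of 1.39, and summed to 0.832 to 612 RPKM in 1,25 NP and to 0.912 to 285 RPKM in vehicle. The differences were 1.54 for S100A8 (SE 1.52), 1.39 for S100A12 (SE 1.66) and 0.019 for CSF3R (SE 0.77). The CSF3R mean was lower in 1,25 NP, at 3.32 RPKM against 5.29 RPKM in vehicle. For each of the 3 markers, 3 of 8 1,25 NP libraries exceeded the vehicle mean. B cell markers had 1 of 2 higher (median -0.33), platelet markers 0 of 3 (-0.19), endothelial markers 2 of 7 (-0.18) and smooth muscle markers 0 of 6 (-0.82). The granule gene MPO of neutrophils was at 0 in 9 of 13 libraries, GP1BA of platelets in 7 and CD79B of B cells in 1. Without vehicle library P16 the T and NK median was 0.16 with 5 of 7 higher, and the macrophage median 0.30 with 6 of 8 higher. The T and NK median was also above 0 without 1,25 NP library P28 or vehicle library P14, and the macrophage median without 1,25 NP library P21, P22, P23, P28 or P31. The neutrophil median ran from 0.59 without 1,25 NP library P31, with 2 of 3 higher, to 2.81 without vehicle library P16, with 3 of 3 higher. The smooth muscle median was -0.21 without vehicle library P17. The part of these cells in the levels of the adhesion molecules was not tested.

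Single cell type markers were set against each of the 7 genes. Of 252 relations of the 7 genes with 36 markers, a family chosen after the data had been seen, 13 passed (permutation test, Benjamini-Hochberg adjusted p under 0.05), 1 of them negative. Their shares over all tested genes were not taken, and a high r was common for some of the 7. Among the r of ITGA4 with all tested genes, that with VCAM1 (r = 0.83) stood above 88.6%. For VCAM1 that with SELP (r = 0.76) stood above 81.1%, and for ITGB2 that with ITGAL (r = 0.84) above 99.5%. ITGA4 passed with the T cell genes CD2 (r = 0.87), CD3E (r = 0.84) and CD3D (r = 0.82). Over the 7 T and NK cell markers the median r with ITGA4 was 0.62, with 0.43 for CD4 and, lowest, -0.33 for NKG7. AIF1, a macrophage gene, passed with VCAM1 (r = 0.88), SELP (r = 0.79) and ITGA4 (r = 0.79). Over the 8 macrophage and monocyte markers the median r was 0.29 for VCAM1, 0.23 for SELP and 0.14 for ITGA4, and that of CSF1R was -0.27, -0.38 and -0.49 with the same genes. VCAM1 also passed with CD79A of B cells (r = 0.80) and with TEK, an endothelial receptor (r = 0.78). Over the 7 endothelial markers the median r with VCAM1 was -0.30, with -0.67 for ENG, -0.60 for TIE1, -0.37 for VWF and -0.30 for CDH5. CD22, a B cell receptor, passed with ITGAL (r = 0.89) and ITGB2 (r = 0.79), and ITGAM passed with CD4 (r = 0.82) and with the neutrophil receptor CSF3R (r = 0.78). Without the 2 libraries farthest on the marker's axis, r was 0.45 for CSF3R with ITGAM and 0.47 for CD22 with ITGB2, so these relations rested on those libraries. ICAM1 passed with no marker. Whether the relation with a marker differs from one adhesion molecule to another was not tested, and ITGAM also had r of 0.75 with CD22 and 0.62 with AIF1, which did not pass (permutation test, adjusted p = 0.0605 and 0.130).

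**Figure D5:**
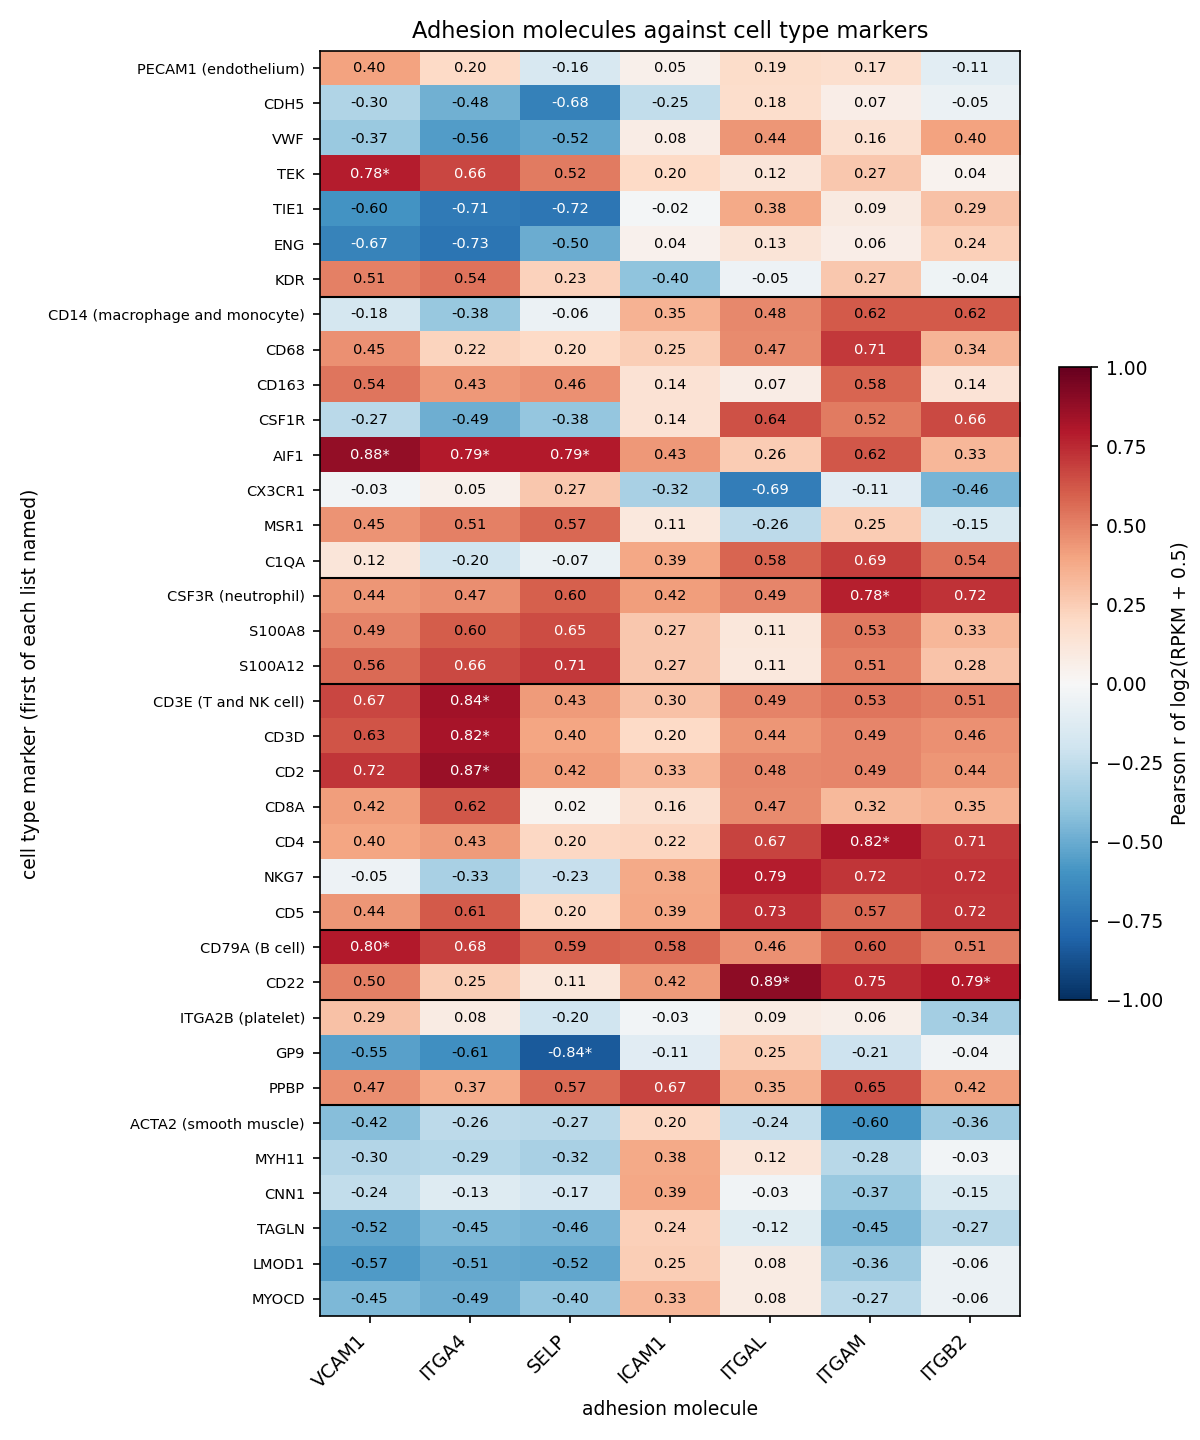
Pearson r of log2(RPKM + 0.5) over the 13 libraries of the 7 adhesion molecules (columns) with 36 cell type markers (rows, grouped by list), with a star where the adjusted permutation p is under 0.05. Stars for ITGA4 lie on CD3E, CD3D, CD2 and AIF1, those for ITGAL and ITGB2 on CD22, and the ICAM1 column has none.

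The genes most like each adhesion molecule over the 13 libraries were taken as the 3 highest Pearson r among 10070 named protein-coding genes with a mean of at least 1 RPKM. For ICAM1 they were CCDC194 (r = 0.85), the interferon-induced BST2 (r = 0.84) and the NF-kappaB inhibitor TNFAIP3 (r = 0.84). The closest genes to VCAM1 were FH, the fumarate hydratase of mitochondria (r = 0.97), the lipid flippase ATP10D (r = 0.97) and the ribosomal protein RPS12 (r = 0.96). For SELP they were IDH3A, an enzyme of the citric acid cycle (r = 0.92), the lipid transporter MFSD2A (r = 0.92) and F5 (r = 0.92), whose row overlaps its own. ITGA4 was followed most closely by EXOC6 (r = 0.96), KBTBD8 (r = 0.95) and the lymphocyte transcription factor IKZF2 (r = 0.95). ITGAL was nearest to SEMA4A (r = 0.93), the leukocyte tetraspanin CD37 (r = 0.92) and the haematopoietic kinase MAP4K1 (r = 0.92). The genes nearest to ITGAM were LY86 (r = 0.94), the complement receptor C5AR1 (r = 0.93) and NLRP12 (r = 0.93), and those nearest to ITGB2 were STXBP2 (r = 0.94), the myosin MYO1F (r = 0.94) and the kinase RPS6KA1 (r = 0.93). These are descriptions over 13 libraries that share one table, with no test.

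Other leukocyte genes in place of PTPRC, a choice made after seeing the data, were set against the 7 as well, and differences between these genes and PTPRC were not tested. CORO1A, an actin regulator of leukocytes, had r of 0.91 with ITGB2, 0.79 with ITGAL and 0.70 with ITGAM, which passed, and of 0.34 with VCAM1, 0.34 with ITGA4 and 0.21 with SELP, which did not (permutation test). LCP1, an actin bundler of leukocytes, had 0.84 with VCAM1, 0.81 with ITGA4 and 0.68 with ITGAM, which passed, and 0.62 with SELP, which did not. LAPTM5, a lysosomal protein of leukocytes, passed with ITGAM (r = 0.81), VCAM1 (r = 0.79) and ITGA4 (r = 0.67), and CD53, a leukocyte tetraspanin, with VCAM1 (r = 0.84), ITGA4 (r = 0.79) and SELP (r = 0.73). Among the r of CD53 with all tested genes these stood above 91.0%, 82.8% and 74.8%, so the SELP value was near those of many genes. With CORO1A, ITGB2 stood above 99.9%, ITGAL above 99.4% and ITGAM above 98.4% of the tested genes. With LCP1, VCAM1 stood above 98.2%, ITGA4 above 97.2% and ITGAM above 87.3%, and with LAPTM5, ITGAM stood above 98.4%, VCAM1 above 97.8% and ITGA4 above 91.9%. PTPRC itself had r of 0.97 with LCP1, 0.94 with CD53, 0.90 with LAPTM5 and 0.43 with CORO1A.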

How the data were processed

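RNA-seq libraries were made from 0.5 µg of total RNA with a TruSeq V2 kit, per the labels' protocols. The authors deposited a table with one value per gene and library, which is read here as RPKM. Its header names no unit. With a library total taken from the smallest value, the deposited value × (length + 1) × total gave whole reads for 100% of values within 0.001, and these reads summed to that total in 13 of 13 libraries. The authors' mean RPKM columns, fold changes and p-values were not used. Gene length, an other measure that the authors deposited, served to recover reads. The labels describe a mouse antibody experiment and name a mouse build, which contradict the pig identifiers, and neither was used. No source used here names the aligner, counter, pig build, annotation or strand setting. Column names show the group but no replicate number of the labels, so each column was assigned to its group only.

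Genes above 0.5 RPKM in at least 5 libraries were fitted with limma 3.58.1 (R 4.3.3, mean-variance trend) on log2(RPKM + 0.5), with Benjamini-Hochberg adjustment over all tested genes at 0.05. A fold change on this scale is smaller than the true change where levels are low. Correlations used 100000 two-sided permutations, or every permutation for 8 libraries (Python 3.11.15, scipy 1.17.1, numpy 2.4.6, matplotlib 3.10.9). The statistics were tested on simulated data. For the treatment comparison, genes were simulated independently and with a spread between libraries set below that observed. That test therefore does not show how well changes are found at the spread of these libraries. The text names the adhesion molecules, PTPRC, PECAM1, up to 3 genes of smallest p per list and the 3 genes most like each adhesion molecule. Chosen after their values were seen were ITGB1, ITGB7, F5, CD53, LCP1, LAPTM5, CORO1A and the markers named for their correlations or zeros. The adhesion molecules and all lists were chosen with earlier results of these data known. Alternatives changed the pseudocount, filter, scaling, covariates and weights, ran voom on the recovered reads, or left out each library. The list of other integrins is given without a gene that is not reported here. No sequence is shown.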

Additional observations from a re-analysis of the deposited data

Results flagged for a closer look

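ITGAM in vehicle library P16 stood far from the other 4 vehicle libraries, at 25.5 RPKM against 7.92 RPKM in the next highest, a gap of 0.863 of the group's range where 0.710 is the limit for 5 samples (Dixon's criterion). It was 1 of 18 groups checked, those of the 7 adhesion molecules, PTPRC and PECAM1 in 1,25 NP and in vehicle, and chance flags about 1 in 20. In the same library ITGAL, ITGB2 and PTPRC were the highest of all 13, at 29.7, 25.2 and 91.0 RPKM, without reaching the limit within the vehicle group.

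The PTPRC difference between 1,25 NP and vehicle had opposite signs in the sexes, at 1.502 on the log2 scale in females and -1.45 in males, a male minus female value of -2.95. All 3 females of 1,25 NP lay above the mean of the vehicle females, and all 5 males of 1,25 NP lay below the mean of the vehicle males. The vehicle males were 2 libraries, P14 and P16, and P16 had the highest PTPRC of all. The leukocyte gene LCP1 had the same pattern, while CD53, LAPTM5 and CORO1A did not. The share of all tested genes with it was not taken. The test of the PTPRC difference between the sexes did not pass over the table (limma interaction, adjusted p = 0.824).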

How the results depend on the processing

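No paired analysis was possible because the columns carry animal codes and not the replicate numbers of the labels, so the planned replicate block was not run. The count of genes that passed for 1,25 NP against vehicle was 0 under the 11 other settings and ran from 0 to 1 with a library left out (SFRP5, without vehicle library P17), while genes at an unadjusted p under 0.05 numbered 495 to 2378 under those settings and 345 to 2213 with a library left out (585 as reported). Under the same settings the log2 difference ran from -0.54 to -0.31 for ICAM1, 0.068 to 0.28 for VCAM1, 0.65 to 0.91 for SELP, 0.29 to 0.56 for ITGA4, -1.06 to -0.81 for ITGAL, -0.41 to -0.17 for ITGAM and -0.67 to -0.36 for ITGB2. PECAM1 turned to 0.20 with array weights, and the cause was not tested. With 1 library left out the sign turned for VCAM1 (-0.11 to 0.33), ITGAM (-0.45 to 0.097), ITGB2 (-0.79 to 4.39e-05) and PTPRC (-0.15 to 0.68). Members that passed with PTPRC numbered 2 to 4 with a library left out and 2 to 3 otherwise, and the ITGAL correlation was -0.020 without the 2 far libraries. Pairs that passed, 6 as reported, numbered 2 by Spearman, 3 without the 2 far libraries, 0 within the 8 1,25 NP libraries and 2 to 8 when a library was left out. Genes called on the PTPRC slope ranged from 1636 (without 1,25 NP library P28) to 8240 (without vehicle library P16), with 3 to 5 of the adhesion molecules. Genes called on the PECAM1 slope were 0 in every case. Intervals cover the spread between libraries, which number 5 in vehicle; SELP, the lowest of the 7, had at least 234 reads in each library.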

Other observations

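CX3CR1, the receptor by which monocytes adhere to membrane-bound fractalkine, had 3.74 ± 1.57 RPKM in 1,25 NP (SD, n = 8) and 1.72 ± 0.628 RPKM in vehicle (SD, n = 5), and 8 of 8 1,25 NP libraries exceeded the vehicle mean. The log2 difference of 0.90 (SE 0.30) had an unadjusted p of 0.00832 and did not pass over the table (limma, adjusted p = 0.795). Of the 8 macrophage and monocyte markers, CX3CR1 among them, 4 were higher and 4 lower, with -0.86 for CSF1R. Over the 13 libraries the r of CX3CR1 with ITGAL was -0.69, which did not pass (permutation p = 0.00734, adjusted p = 0.0777 over 252 relations, rho -0.65), and r was -0.59 without the 2 libraries farthest on the CX3CR1 axis. Within the 8 1,25 NP libraries r was -0.44. CX3CR1 was higher and ITGAL lower in 1,25 NP, and the part of this group difference in the r over 13 libraries was not tested. The value over the 13 libraries was the lowest r of ITGAL with the 8 markers, whose median was 0.36 and whose highest was 0.64, for CSF1R.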
